A study of Saccharomyces cerevisiae with 8 samples.

Results

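The 30 genes described here encode the enzymes of ergosterol synthesis in Saccharomyces cerevisiae, with 2 of their transcription factors and the enzymes that esterify sterols. They were chosen by name from the 6002 nuclear protein-coding genes of the RefSeq R64 annotation, and all 30 names matched 1 gene each. Their promoter accessibility was read from ATAC-seq, a method in which Tn5 transposase inserts adapters into exposed DNA. The study sampled haploid MATa cells of the S288c background in 4 groups of 2 samples. The groups were cen4- cells at 180 min after addition of 1 µM beta-estradiol, CEN4* cells at 0 min without it, CEN4 cells at 180 min with 1 µM beta-estradiol, and CEN4 cells at 0 min without it. In CEN4* the centromere of chromosome IV lies between lox sites, and the strain is called cen4- once Cre recombinase has excised that centromere. CEN4 is the control strain without those lox sites, and whether it carries Cre is not given in the labels.

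The values come from 4 peak lists, 1 for each time in strain codes 8 and 11. Neither code is matched to CEN4 or CEN4* by the labels, and neither is taken as the control here. Each code has 1 list at each time and hence no replicates, and every difference below is a description without a test. Summit pileups were recovered from the deposited values and divided by the genome-wide background of their list, which gives the relative pileup. That background was 439.2 at 180 min against 413.8 at 0 min in code 8, and 512.2 at 180 min against 601.7 at 0 min in code 11. How many reads lie behind each list is unknown. All 7 MATa-specific genes checked had a promoter summit in all 4 lists, as 60.8% of all genes did. Of 4 MATalpha-specific genes, STE3 had one in all 4 lists and 2 had one in none.

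Ergosterol is the main sterol of yeast membranes and takes the place that cholesterol holds in animals. Acetyl-CoA is turned into mevalonate and isoprenoid units, these are joined to farnesyl diphosphate and squalene, and squalene is closed to lanosterol and trimmed to ergosterol in the endoplasmic reticulum. The zinc-cluster factors Upc2 and Ecm22 bind sterol response elements in many of these promoters and activate them when sterols run low, and several steps need oxygen and haem.

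Most of these genes had a promoter summit, which 20 of them (66.7%) kept in all 4 lists, against 60.8% of all genes. A summit lay in the promoter window, which spans 400 bp before the gene start and the first 100 bp of the gene, for 20 of 30 genes at 180 min against 20 at 0 min in code 8. In code 11 it did for 20 at 180 min against 21 at 0 min. Of all protein-coding genes 64.6% and 64.7% had one in code 8 at 180 and 0 min, and 64.3% and 65.6% in code 11, so the members' share, 66.7% in the lists with 20, was near the background. The gene start is the start of the coding region here, since 96.4% of the gene models have lengths that are multiples of 3. A region overlapped the window of 26 members in every list (86.7%), against 73.1% and 73% of all genes in code 8 at 180 and 0 min and 72.9% and 74% in code 11. Of the 10 genes without a summit in the window in code 8, 6 had one farther upstream, within 1000 bp, in every list. Extending the window to 1000 bp took the share in code 8 at 180 min from 66.7% to 86.7% of the members. For all genes it went from 64.6% to 75.7%.

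**Figure D1:**
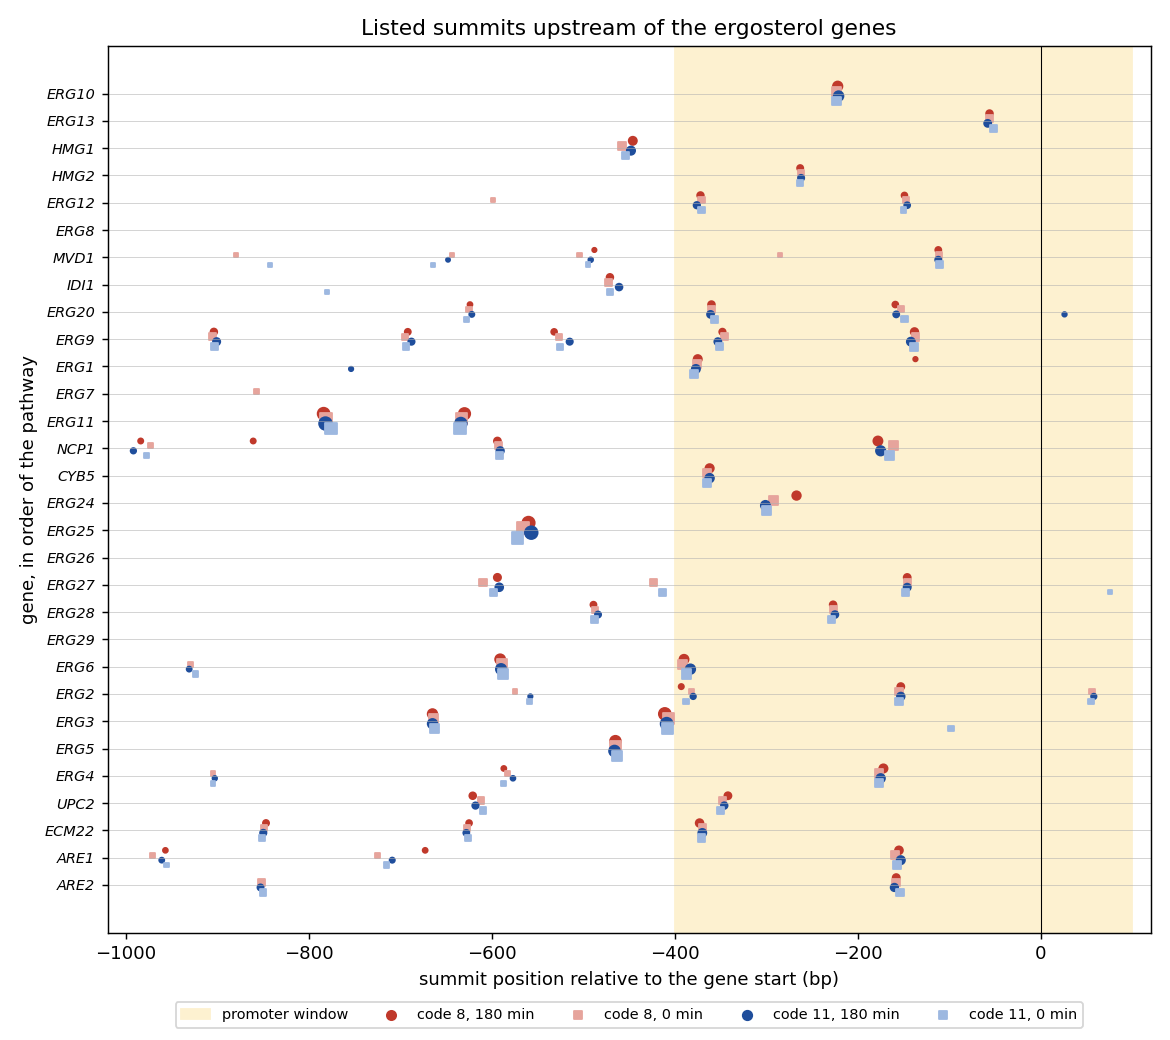
Positions of all listed summits up to 1000 bp before and 100 bp after each of the 30 gene starts; the x axis is the distance from the gene start in bp, each row is a gene in pathway order, and symbol area is proportional to relative pileup. At strong summits the symbols of the 4 lists lie close together, and the large symbols of ERG11, ERG25, ERG3 and ERG5 lie upstream of the shaded promoter window.

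The strongest summits of the pathway lay upstream of the window. ERG25, the sterol methyl oxidase (YGR060W, chromosome VII 610564 to 611493, sacCer3), had a summit of relative pileup 11.67 at 180 min against 10.88 at 0 min in code 8, and 12.34 at 180 min against 10.76 at 0 min in code 11. It lay 557 to 572 bp upstream of the gene start. ERG11, the lanosterol demethylase that azole drugs inhibit (YHR007C, VIII 120091 to 121683), had 10.93 at 180 min against 10.85 at 0 min in code 8, and 12.29 at 180 min against 10.22 at 0 min in code 11. That summit lay 776 to 784 bp upstream, and another lay 630 to 635 bp upstream with 9.95 at 180 min against 9.88 at 0 min in code 8, and 10.58 at 180 min against 9.96 at 0 min in code 11. Both ERG11 summits were in a region of 968 to 996 bp that overlapped the promoter window in every list.

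ERG3, a sterol desaturase (YLR056W, XII 253861 to 254958), had its main summit 407 to 411 bp upstream, just outside the window. Its relative pileup was 10.80 at 180 min against 9.75 at 0 min in code 8, and 10.97 at 180 min against 9.77 at 0 min in code 11. This summit also lay in the promoter window of SPT8, which encodes a subunit of the SAGA coactivator and is transcribed in the other direction, so the assay cannot assign it to either gene. ERG5, another sterol desaturase (YMR015C, XIII 300869 to 302485), had 8.84 at 180 min against 8.42 at 0 min in code 8, and 8.99 at 180 min against 8.06 at 0 min in code 11, at 463 to 466 bp upstream. HMG1, the main HMG-CoA reductase (YML075C, XIII 115734 to 118898), had 5.07 at 180 min against 5.08 at 0 min in code 8, and 5.24 at 180 min against 4.68 at 0 min in code 11. Its summit lay 446 to 458 bp upstream. IDI1, the isopentenyl diphosphate isomerase, had the weakest of these summits, 461 to 473 bp upstream, with 3.41 at 180 min against 3.56 at 0 min in code 8, and 3.48 at 180 min against 3.29 at 0 min in code 11.

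With the window extended to 1000 bp upstream, 26 of 30 members had a summit at 180 min against 27 at 0 min in code 8, and 26 at both times in code 11. All genes had one in 75.7% and 75.9% of cases in code 8 at 180 and 0 min, and 75.7% and 76.8% in code 11. ERG3, ERG11 and ERG25 then stood above the 90th percentile of all genes with a summit in all 4 lists, from percentile 93.1 for ERG3 in code 8 at 0 min to percentile 97.2 for ERG25 in code 8 at 180 min. These 3 members were 11.1% to 11.5% of the members with a summit, which is close to the 10% that the percentile itself sets. The space between genes was wider upstream of the members, with a median of 539.5 bp to the next gene against 448 bp for 5993 genes. The widest such space, 1748 bp, lay upstream of ECM22, and ERG25 had 1462 bp. ERG6 and ERG27 had a summit in the window and a stronger one beyond it. That of ERG6, 588 to 591 bp upstream, had 7.71 at 180 min against 7.62 at 0 min in code 8, and 8.28 at 180 min against 7.81 at 0 min in code 11. It also lay in the windows of MIN4 and YAP1, and that of ERG27 lay in the windows of ICT1 and MIM2, so neither can be assigned to 1 gene.

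For 4 members no region lay over the promoter window in any list. ERG7, the lanosterol synthase (VIII 239098 to 241293), had 1 weak summit within 1000 bp, at 857 bp upstream in code 8 at 0 min with a relative pileup of 1.93. Around ERG26, the sterol decarboxylase (VII 495453 to 496502), no summit was listed for 3.589 kb. ERG8, phosphomevalonate kinase (XIII 712316 to 713671), lay in a stretch of 13.927 kb with no listed summit that holds the starts of 5 genes, 1 of 22 stretches of at least that length in the genome. ERG29, needed at the methyl oxidase step (XIII 537838 to 538551), lay in one of 12.158 kb with the starts of 6 genes. The highest number in the peak names exceeds the number of sub-peaks by 280 to 332, so some numbered peaks are not in the lists. Whether the ERG8 and ERG29 promoters were closed was therefore not assessed here. Both genes stay in the counts as members without a summit, also in those of gained summits.

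Among members with a summit in the window, levels differed more between genes than between lists. The median relative pileup was 4.09 at 180 min against 4.44 at 0 min in code 8, where all genes had 3.62 at 180 min and 3.68 at 0 min. In code 11 it was 4.68 at 180 min against 4.41 at 0 min, where all genes had 3.74 at 180 min and 3.62 at 0 min. The median member stood at percentile 59.9 at 180 min against 65.3 at 0 min in code 8, and at 67.6 and 66.2 in code 11. Members in the window ran from 2.77 for MVD1 in code 8 at 180 min to 7.19 for ERG10 in code 11 at 180 min, with the weak ERG3 summit below them.

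**Figure D2:**
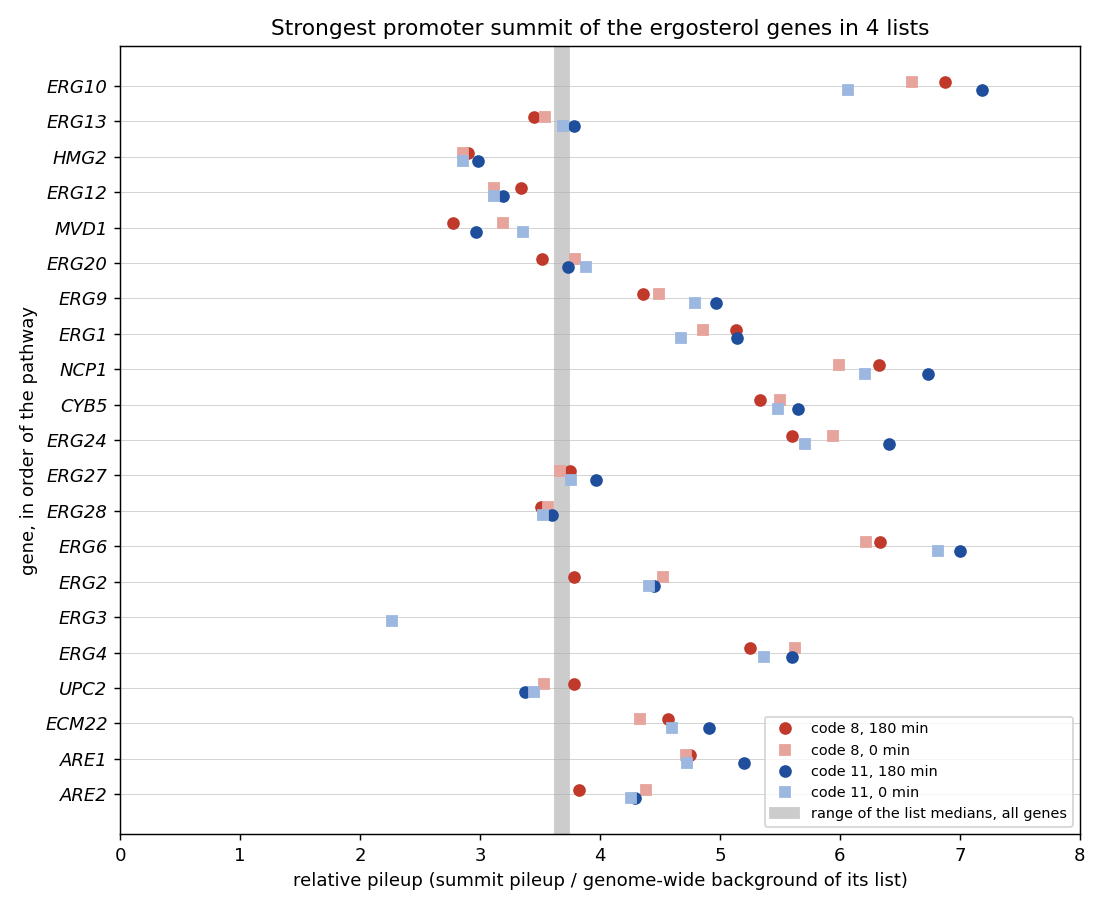
Relative pileup of the strongest summit in the promoter window (x axis, summit pileup divided by genome-wide background) for each gene with one, in pathway order on the y axis; circles are 180 min and squares 0 min, red for code 8 and blue for code 11, and the grey band spans the 4 list medians over all genes (3.62 to 3.74). ERG10, ERG6 and NCP1 are the 3 highest in each list, and HMG2 or MVD1 is the lowest in each list among the 20 genes with a summit in all 4.

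In the mevalonate stage, which makes the isoprenoid units, ERG10 stood above the other genes with a summit in the window. This gene (YPL028W, XVI 498096 to 499292) encodes the acetyl-CoA acetyltransferase of the first step. Its relative pileup was 6.88 at 180 min against 6.60 at 0 min in code 8, and 7.19 at 180 min against 6.07 at 0 min in code 11. The other 4 genes of this stage with a summit in the window lay near or below the median of all genes. ERG13, HMG-CoA synthase, had 3.45 at 180 min against 3.54 at 0 min in code 8, and 3.78 at 180 min against 3.69 at 0 min in code 11. ERG12, mevalonate kinase, had 3.34 at 180 min against 3.12 at 0 min in code 8, and 3.19 at 180 min against 3.12 at 0 min in code 11. MVD1, mevalonate diphosphate decarboxylase, shared its summit with COQ2, a ubiquinone synthesis gene on the opposite strand 235 bp away. It had 2.77 at 180 min against 3.19 at 0 min in code 8, and 2.97 at 180 min against 3.36 at 0 min in code 11. The 180 min value was the lower one in both codes.

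The HMG-CoA reductase paralogs, which catalyse the rate-limiting step, differed in where and how strongly they were open. HMG2 (YLR450W, XII 1032627 to 1035764), the isoform known as more active at low oxygen, had 2.90 at 180 min against 2.86 at 0 min in code 8, and 2.98 at 180 min against 2.86 at 0 min in code 11. Its summit lay 262 to 263 bp upstream in a region of 163 to 199 bp, the narrowest in each list among members with a summit in the window. HMG1 stood higher in every list, at its summit 446 to 458 bp upstream in a region of 723 to 746 bp. The difference has no replicate check.

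From farnesyl diphosphate to lanosterol, the 3 genes with a summit spanned the middle of the range. ERG1, the squalene epoxidase that terbinafine inhibits, had 5.13 at 180 min against 4.86 at 0 min in code 8, and 5.14 at 180 min against 4.67 at 0 min in code 11. ERG9, squalene synthase, had 4.36 at 180 min against 4.50 at 0 min in code 8, and 4.97 at 180 min against 4.79 at 0 min in code 11. ERG20, farnesyl diphosphate synthase, had 3.51 at 180 min against 3.79 at 0 min in code 8, and 3.73 at 180 min against 3.88 at 0 min in code 11. The ERG20 summit lay 357 to 361 bp upstream, also in the window of SET2, a histone methyltransferase gene on the other strand.

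The stage from lanosterol to zymosterol held a higher set of 3 genes and a lower pair. NCP1 (YHR042W, VIII 190543 to 192618), the reductase that passes electrons to Erg11, had 6.33 at 180 min against 5.99 at 0 min in code 8, and 6.73 at 180 min against 6.21 at 0 min in code 11. ERG24, a sterol reductase, had 5.60 at 180 min against 5.95 at 0 min in code 8, and 6.41 at 180 min against 5.71 at 0 min in code 11, in a promoter shared with the mating gene PRM1. CYB5, an electron carrier for the desaturases, had 5.33 at 180 min against 5.50 at 0 min in code 8, and 5.65 at 180 min against 5.49 at 0 min in code 11. The pair from the demethylation complex was lower in every list. ERG27, the ketoreductase, had 3.75 at 180 min against 3.66 at 0 min in code 8, and 3.96 at 180 min against 3.76 at 0 min in code 11. ERG28, the scaffold that holds these enzymes together, had 3.51 at 180 min against 3.56 at 0 min in code 8, and 3.60 at 180 min against 3.52 at 0 min in code 11, and so moved least across the lists.

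In the last stage, ERG6, the sterol methyltransferase that sets yeast sterols apart from cholesterol, had the highest level of the members in the window in code 11 at 0 min and the second highest, after ERG10, in the other 3 lists. Its summit also lay in the window of MIN4, 171 bp away on the same strand, and cannot be assigned to either gene. Its value was 6.34 at 180 min against 6.22 at 0 min in code 8, and 6.999 at 180 min against 6.82 at 0 min in code 11. ERG4, the final reductase, had 5.25 at 180 min against 5.63 at 0 min in code 8, and 5.60 at 180 min against 5.37 at 0 min in code 11, with its summit also in the window of the drug resistance factor gene PDR1. ERG2, the sterol isomerase (YMR202W, XIII 667537 to 668205), had 3.78 at 180 min against 4.53 at 0 min in code 8, and 4.45 at 180 min against 4.41 at 0 min in code 11. The code 8 value at 180 min stood apart from the other 3. Its summit also lay in the window of RAD14, an excision repair gene.

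The paralogs that regulate the pathway were open at middle levels. ECM22 (YLR228C, XII 600019 to 602463) had 4.57 at 180 min against 4.33 at 0 min in code 8, and 4.91 at 180 min against 4.60 at 0 min in code 11. UPC2 (YDR213W, IV 889751 to 892492) had 3.78 at 180 min against 3.53 at 0 min in code 8, and 3.38 at 180 min against 3.45 at 0 min in code 11. ECM22 was the higher of this pair in all 4 lists, and both summits lay 342 to 373 bp upstream. Of the sterol acyltransferases, ARE1 had 4.75 at 180 min against 4.72 at 0 min in code 8, and 5.20 at 180 min against 4.72 at 0 min in code 11, in a promoter shared with BUD23. ARE2, the main isoform in aerobic cells, had 3.83 at 180 min against 4.38 at 0 min in code 8, and 4.295 at 180 min against 4.26 at 0 min in code 11.

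The comparison over time asked whether these promoters changed in the 180 min after beta-estradiol. In code 8, 0 of 20 members lost their promoter summit, where 3.73% of all genes did, and 0 of 10 gained one, where 6.43% did. In code 11, 1 of 21 lost it, where 4.39% did, and 0 of 9 gained one, where 4.46% did. The lost summit belonged to ERG3 and was a weak one 98 bp upstream, with a relative pileup of 2.27 at 0 min, percentile 16.5 of all genes. A region covered the ERG3 window in all 4 lists, and its main summit 407 to 411 bp upstream was present in each. Summits stayed in place, within 10 bp for 18 of 20 members in code 8 and 20 of 20 in code 11, against 93.3% and 93.8% of all genes. The largest shift was 25 bp, at ERG24 in code 8.

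No member in the window changed by 1.2-fold in either code. In code 8, 0 of 20 were at least 1.2-fold higher at 180 min, where 3.69% of all genes were, and 0 of 20 were lower by that factor, where 2.3% were. In code 11 the counts were also 0 and 0, where 1.35% of all genes were higher and 0.93% lower. The median log2 change, 180 min over 0 min, was -0.01 over the members in code 8 (SD over genes 0.11), against -0.03 over 3741 genes. Without chromosome IV these code 8 medians were -0.02 and -0.05. In code 11 the median was 0.05 over the members (SD 0.09), against 0.04 over 3765 genes. Thus 11 of 20 members lay above the median of all genes in code 8, and 11 of 20 in code 11.

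**Figure D3:**
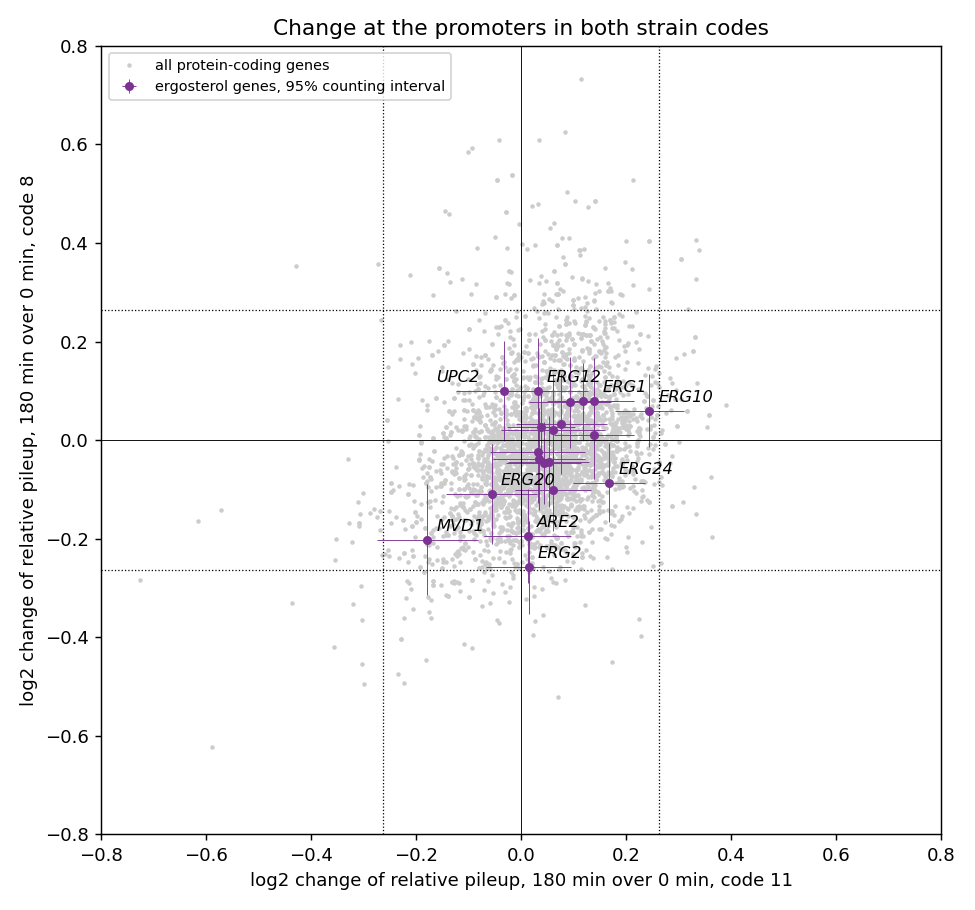
Log2 change of relative pileup, 180 min over 0 min, in code 11 (x axis) and code 8 (y axis) for 20 ergosterol genes (purple, bars are 95% counting intervals) and all protein-coding genes (grey, 6 lie outside the axes); dotted lines mark 1.2-fold. All 20 members lie inside the dotted square, with ERG2 at its lower edge and MVD1 below 0 on both axes.

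In code 8 the lowest changes were those of ERG2, MVD1, ARE2 and ERG20. ERG2 had a log2 change of -0.26 (95% interval -0.35 to -0.16), where the interval covers counting error only, and its ratio of 0.836 was just short of 1.2-fold. MVD1 had -0.20 (-0.31 to -0.09), ARE2 had -0.20 (-0.29 to -0.10) and ERG20 had -0.11 (-0.21 to -0.01). The highest were UPC2 at 0.10, with a lower bound just below 0 and an upper bound of 0.20, ERG12 at 0.10 (-0.01 to 0.21), ERG1 at 0.08 (-0.01 to 0.17) and NCP1 at 0.08, with a lower bound just above 0 and an upper bound of 0.16. Among all genes, the change of ERG2 stood at percentile 2.69 and that of UPC2 at percentile 83.1. With the deposited fold over local background in place of relative pileup, the log2 change of ERG2 was -0.06, and its local background differed by -0.20 on the log2 scale. By the fold, ERG20 had a log2 change of 0.03 in code 8, the opposite direction. UPC2 also turned, to -0.29 by the fold, the lowest of the 20 members and past 1.2-fold lower, while its local background differed by 0.39.

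In code 11 the highest changes were those of ERG10, ERG24, ARE1 and ERG1. ERG10 had 0.24 (0.18 to 0.31), a ratio of 1.18 that stood at percentile 97.7 of all genes, and 0.15 with the fold over local background. ERG24 had 0.17 (0.10 to 0.24), ARE1 0.14 (0.06 to 0.22) and ERG1 0.14 (0.06 to 0.22). MVD1 was the lowest, at -0.18 (-0.28 to -0.08) and percentile 3.47, followed by ERG20 at -0.06 (-0.14 to 0.03), UPC2 at -0.03 (-0.12 to 0.06) and ARE2 at 0.01 (-0.07 to 0.09). MVD1, with the promoter it shares with COQ2, was thus the member whose interval lay below 0 in both codes. NCP1 was the member whose interval lay above 0 in both, and its change stood at percentile 79.5 of all genes in code 8 and 77.7 in code 11. The share of all genes with such intervals in both codes is not given here. Neither result is therefore read as particular to the members.

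With the window extended to 1000 bp, 1 member passed 1.2-fold. The ERG11 summit had a log2 change of 0.27 (0.22 to 0.32) in code 11, where 2.08% of 4477 genes were higher by that factor, and 0.01 (-0.05 to 0.07) in code 8. Its fold over local background was 7.07 at 180 min against 6.10 at 0 min in code 11, a log2 change of 0.21, which is short of 1.2-fold. No member was lower by that factor in code 11, where 0.96% of genes were, and in code 8 none was higher or lower, where 3.31% were higher and 2.07% lower. ERG25 had 0.20 (0.15 to 0.25) in code 11 and 0.10 (0.04 to 0.16) in code 8. ERG3 had 0.17 (0.11 to 0.22) in code 11 and 0.15 (0.09 to 0.21) in code 8, and ERG5 had 0.16 (0.10 to 0.22) in code 11 and 0.07 (0.00 to 0.14) in code 8. HMG1 had 0.16 (0.09 to 0.24) in code 11 and a change near 0 in code 8 (-0.09 to 0.08). ERG27, at the summit it shares with ICT1 and MIM2, had 0.24 (0.16 to 0.33) in code 11 and -0.13 (-0.22 to -0.03) in code 8, while its summit in the promoter window had 0.08 and 0.03. The median of all genes in this wider window was 0.05 in code 11 and -0.02 in code 8.

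The difference between the codes, code 8 minus code 11, had a median of -0.06 over 20 members and -0.06 over 3649 genes. Without chromosome IV these medians were -0.06 and -0.08. Of the members 18 were below 0 and 9 were below the median of all genes. The lowest were ERG2 at -0.27, ERG24 at -0.25, whose code 8 change had the opposite sign with the fold over local background, and ARE2 at -0.21, and the highest were UPC2 at 0.13 and ERG12 at 0.07. With the fold over local background UPC2 was instead the lowest of the members, at -0.20. ERG2 stood at percentile 4.78 of all genes and UPC2 at percentile 89.6.

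UPC2 was the only one of the 30 genes on chromosome IV, the chromosome whose centromere the design excises. In code 8 the other 521 chromosome IV genes with a promoter summit in both lists had a median log2 change of 0.18, and genes of the other chromosomes had -0.05. At 0.10, UPC2 stood at percentile 19.8 of its chromosome, 0.08 below the median there. Its local background was 1.67 times the genome-wide one at 180 min and 1.27 times at 0 min, a log2 change of 0.39 that stood at percentile 91.9 of the chromosome. Its fold over that background was 2.26 at 180 min against 2.77 at 0 min, a log2 change of -0.29 at percentile 1.15. In code 11 the same measures were 0.06 for the local background and -0.09 for the fold, at percentiles 91.4 and 9.04 of chromosome IV. Its relative pileup in code 11 had a log2 change of -0.03, at percentile 20.0 of the chromosome. The fold by its definition takes in both pileup and local background. In code 8 the UPC2 fold was thus lower with a higher local background and a relative pileup that was not lower. Why the local background differed was not tested.

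**Figure D4:**
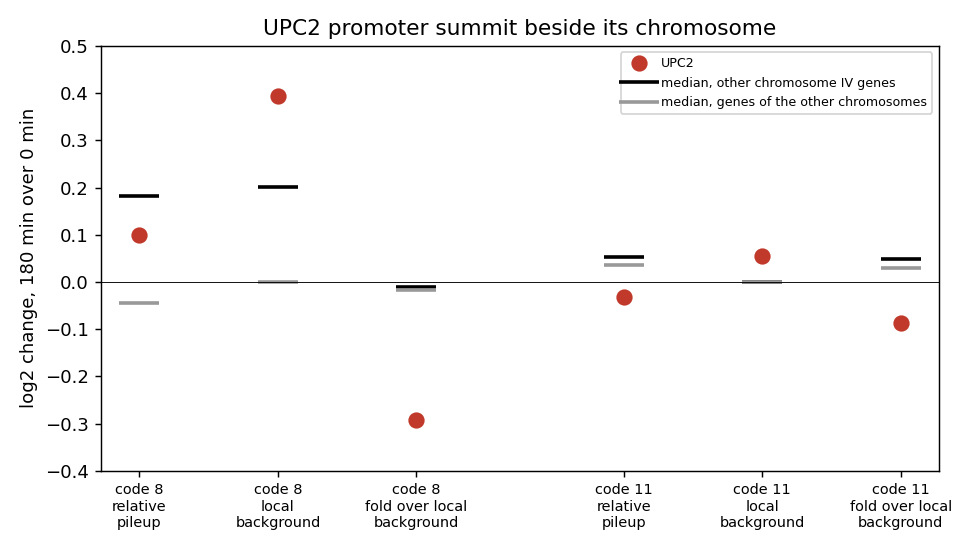
Log2 change, 180 min over 0 min (y axis), of relative pileup, local background and fold over local background for the UPC2 promoter summit (red), with the median of the other chromosome IV genes (black) and of genes on other chromosomes (grey), in code 8 (left) and code 11 (right). In code 8 the local background of UPC2 is 0.39 higher and its fold has a log2 change of -0.29, while the chromosome IV medians are 0.20 and -0.01.

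Genes around the pathway were taken from 3 further lists. The shares of all genes that lost a summit, gained one or passed 1.2-fold are those given above, among them 3.73% lost and 6.43% gained in code 8, and 4.39% lost and 4.46% gained in code 11. Of 15 sterol regulators and degradation genes, 10 had a promoter summit at each time in code 8 and 11 at each time in code 11. HRD3, a subunit of the ubiquitin ligase that degrades Hmg2, had 2.65 at 0 min in code 8 and no summit or region in its window at 180 min, but 2.77 at 180 min against 2.48 at 0 min in code 11. HRD1, the ligase itself, had no summit in code 8, and in code 11 it had 2.80 at 180 min and none at 0 min. HAP1, the haem-responsive activator of several ergosterol genes, gained a weak summit in code 8 (2.03) and lost one in code 11 (1.79). With the window extended to 1000 bp, HAP1 had a strong summit of 11.62 at 180 min against 10.57 at 0 min in code 8, and 12.36 at 180 min against 10.30 at 0 min in code 11. SUT2, a putative factor of sterol uptake, was past 1.2-fold lower in code 8, as 1 of 9 genes here with a summit at both times, where 2.3% of all genes were. It had 3.08 at 180 min against 3.71 at 0 min.

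Of 26 genes of sterol transport and ester turnover, 18 had a promoter summit at 180 min against 17 at 0 min in each code. YSP1, of the family that moves sterols between membranes, gained a summit in both codes, with 2.05 in code 8 and 1.93 in code 11. NPC2, a sterol-binding protein of the vacuole, had 4.90 at 180 min against 3.93 at 0 min in code 8, and 3.97 at 180 min against 4.03 at 0 min in code 11. OSH2, an oxysterol-binding protein, had 7.20 at 180 min against 5.86 at 0 min in code 8, and 5.76 at 180 min against 5.50 at 0 min in code 11. DAN1, a cell wall protein of anaerobic growth, had 2.15 at 180 min against 2.64 at 0 min in code 11, a log2 change of -0.30 that was past 1.2-fold, where 0.93% of all genes were. Of 13 genes of other isoprenoid branches, 8 had one in every list. RAM1, a subunit of protein farnesyltransferase, had 3.68 at 180 min against 2.95 at 0 min in code 8, and 2.80 at 180 min against 2.86 at 0 min in code 11. NPC2, OSH2 and RAM1, the genes of these lists at least 1.2-fold higher in code 8 by relative pileup, all lie on chromosome IV. Over the chromosome IV genes other than UPC2, the median log2 change in code 8 was 0.20 for the local background. For the fold over local background that median was -0.01. The fold of NPC2, OSH2 and RAM1 is not given here. Among all genes 3.69% were higher by that factor in code 8, and 124 of those 138 genes lie on chromosome IV, where 23.8% of 522 genes were called.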

How the data were processed

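Zymolyase-treated cells were exposed to Tn5, and the libraries were read from both ends, per the labels' protocols. Per the submitters' processing notes, MACS2 2.2.4, HOMER, Bowtie2 2.3.4.3, Picard and SAMtools were used with build sacCer3; their roles are not stated there. Whether replicates were pooled, reads were shifted or peaks were filtered is likewise not given in the sources used here. Separately, the authors deposited 4 narrowPeak lists with a score per sub-peak (10 times −log10 p, truncated), a fold enrichment over local background (a linear ratio), and −log10 of the p-value and q-value. List names gave the code and the time.

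The deposited fold was taken as (pileup + 1)/(background + 1) and the p-value as the upper Poisson tail, and both pileup and background were solved from them. Between 99.1% and 99.8% of pileups were whole within 0.05, where chance gives 10%. The recovery was tested on simulated data. The genome-wide background was the floor of the local one. The strongest summit in a window is the one with the highest pileup, and summits are 1-based. Gene positions, names and strands came from RefSeq R64, which sacCer3 represents. Counting intervals are 95% Poisson intervals on the log2 scale and miss replicate variation. Python 3.11.15, numpy 2.4.6, scipy 1.17.1 and pandas 2.3.3 were used.

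The members, gene lists and naming rule were chosen with earlier results of these data known. All 30 members were described; of the other lists, genes that lost or gained a summit or passed 1.2-fold were named. Promoter motifs were planned and are not analysed here. Alternatives covered the window, the threshold, the divisor, the measure and the matching of summits.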

Additional observations from a re-analysis of the deposited data

Results flagged for a closer look

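ERG24, a sterol reductase gene, differed between the codes, with opposite changes of relative pileup whose counting intervals both left out 0. In code 8 its log2 change, 180 min over 0 min, was -0.09 (-0.17 to -0.01), and in code 11 it was 0.17 (0.10 to 0.24), a difference of -0.25, code 8 minus code 11. The difference was not tested, since each code has 1 list per time. With the fold over local background the code 8 change was 0.09 and the code 11 change 0.14, so the opposite direction was absent on that scale. With the median promoter pileup as divisor the changes were -0.07 and 0.12, for which no intervals are given. By relative pileup the other chromosome XIV genes had a median change of -0.07 in code 8, close to that of ERG24, and of 0.03 in code 11. Among all genes ERG24 stood at percentile 29.9 in code 8 and 90.1 in code 11. Its difference between the codes stood at percentile 6.48 of all genes, and that of ERG2 was lower, at percentile 4.78. Its code 8 summit lay 267 bp upstream at 180 min and 292 bp at 0 min, and its region was 636 bp wide at 180 min and 775 bp at 0 min.

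ERG27, the ketoreductase gene, also had opposite changes in the 1000 bp window, at a summit 592 to 610 bp upstream that lay in the windows of ICT1 and MIM2. Its log2 change was -0.13 (-0.22 to -0.03) in code 8 and 0.24 (0.16 to 0.33) in code 11, a difference of -0.37, code 8 minus code 11, which was not tested. With the fold over local background the changes were -0.13 and 0.24. The share of all genes with opposite changes of this kind, in either window, is not given here. Neither flag is therefore read as particular to the members.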

How the results depend on the processing

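No paired analysis was possible because the lists carry no replicate number. Across the settings tried, 78 of 90 summary values moved by less than the SD over members or, for counts, by at most 1.5 times. Some of these values could not move. Leaving out the member on chromosome IV, or the members that share a summit, cannot change a count of 0 past 1.2-fold. The tally is therefore no measure of how robust the results are. With a window of 250 bp upstream to 50 bp downstream, 13 members had a summit in code 8 at 0 min and 13 in code 11 at 180 min, and 1 was gained in code 8. With 1000 bp upstream, 1 summit was lost in code 8 and 0 in code 11, and 1 member was past 1.2-fold higher in code 11. With any region over the window 0 were lost in code 11. With the fold over local background 1 member was past 1.2-fold lower in code 8, which was UPC2, and 1 also with that fold in the 1000 bp window, a setting chosen after seeing the data. At a threshold of 1.1-fold, 3 members were lower in code 8, and in code 11 4 were higher and 1 lower. The shares of all genes at 1.1-fold, in the narrow window and by the fold are not given here. The counts under those settings are therefore not read as particular to the members. The causes were not tested.

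The median log2 change lay between -0.02 and 0.03 in code 8. In code 11 it lay between 0.00 and 0.08. The median difference between codes lay between -0.09 and 0.01. Of 40 changes of single members, 32 kept their sign with the fold over local background, 33 with the median divisor, 40 with matched summits and 39 with the wider window. Matching gave the same values, because no member's summit shifted by more than 25 bp and 50 bp was allowed, so it was no separate check. In the wider window only ERG6 and ERG27 had another strongest summit, and the other values were the same. Strands share 1 pileup in this assay, so a summit in the windows of 2 genes belongs to either. Promoter motifs were not run.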

Other observations

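Several of these promoter windows held more than 1 summit. ERG9, squalene synthase, had a second summit 346 to 353 bp upstream, where relative pileup was 3.13 at 180 min against 3.50 at 0 min in code 8, and 3.83 at 180 min against 3.52 at 0 min in code 11. The space between ERG9 and PTH1, the next gene upstream on the same strand, is 244 bp, so this summit lay beyond it. ERG20 had a second summit 149 to 159 bp upstream, with 2.63 at 180 min against 2.72 at 0 min in code 8, and 2.78 at 180 min against 2.87 at 0 min in code 11. ERG12 had a second summit 146 to 150 bp upstream, with 2.56 at 180 min against 2.75 at 0 min in code 8, and 2.66 at 180 min against 2.48 at 0 min in code 11. At ERG2, a summit 55 to 58 bp inside the gene had 2.26 at 180 min against 2.33 at 0 min in code 11, and 2.23 at 0 min in code 8, while none was listed there in code 8 at 180 min. Members with at least 2 summits in the window were 25% at both times in code 8, and 20% at 180 min and 23.8% at 0 min in code 11, against 24.3%, 26.6%, 24.4% and 28.0% of all genes with a summit in the same order.

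The strongest summit of the members lay a median of 224.5 bp upstream at 180 min against 225 bp at 0 min in code 8, against 179 bp for all genes at both times. It lay more than 300 bp upstream in 7 of 20 members in code 8 at each time, 35.0%, against 17.0% of all genes. Regions around the members' summits had a median width of 618.5 bp at 180 min against 794 bp at 0 min in code 8, and 831.5 bp at 180 min against 847 bp at 0 min in code 11. For all genes these medians were 495 bp, 510 bp, 484 bp and 522 bp in the same order. The MVD1 region was 255 bp wide at 180 min against 1313 bp at 0 min in code 8, and 1263 bp at 180 min against 1328 bp at 0 min in code 11. In code 8 at 180 min a separate region of 357 bp, with a summit 488 bp upstream, was listed within the span of the 0 min region. The width there thus reflects in part a split of the listed region. Weak code 8 summits 285, 644 and 880 bp upstream at 0 min had no listed counterpart at 180 min.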
